A study of Mus musculus with 6 samples.

Results

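The genes examined were Rest, its 3 Rcor corepressors (Rcor1, Rcor2, Rcor3) and 6 neuronal genes (Amer3, Ttc9b, Sez6, Scrt1, Scrt2, Golga7b). They were taken by their symbols, and all 10 were present among the 15095 genes of the deposited RNA-seq table. The neuronal genes had been picked in earlier work on this same table, from the authors' comparison of the genotypes together with a search for the REST element near their transcription start sites. The presence of that element is therefore described below without a test. For Scrt2, the search described below found no match within 500 bases of the start. That search found a match in only 15 of 47 known REST targets, so it cannot show that Scrt2 lacks a site.

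The RNA came from neural progenitor cells (NPCs) derived from the mouse embryonic stem cell line HA36CB1. Cells grew as aggregates for 4 days without and 4 further days with 5 uM retinoic acid, and were collected at day 8. There were 3 libraries of wild-type NPCs and 3 of NPCs with a Setd2 knock-out made with CRISPR in the same isogenic line. Setd2 encodes the methyltransferase that places H3K36me3 over transcribed gene bodies, and the comparison of both genotypes addressed its role in differentiation. The labels leave unsaid which knock-out clone was sequenced and whether replicate libraries stem from independent differentiations, and they name the cell type as embryonic stem cells although the titles name NPCs. The table gives 1 average level per gene over all 6 libraries, beside the columns of the authors' genotype comparison, which are not used here. A difference between wild-type and Setd2-KO NPCs, a spread over libraries and the depth of each library therefore cannot be given, and each level is the authors' average over both genotypes.

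REST is a zinc finger repressor that keeps neuronal genes silent in non-neuronal cells and is lowered as progenitors become neurons. It binds a long element, the RE1 or NRSE, with separate left and right arms. One end of the protein recruits the SIN3 complex with histone deacetylases, whereas the other recruits CoREST, the product of the Rcor genes, which bridges to the histone demethylase LSD1 (Kdm1a) and to HDAC1 and HDAC2. Some genes under REST control are themselves repressors or splicing factors of neurons, so that loss of REST can spread through further regulators.

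The element was searched as the left arm TTCAGCACC, 2 free bases and the right arm GGACAGCGC, on both strands, with at most 4 mismatches over the 18 defined positions. Of the 10 genes, Amer3, Ttc9b, Sez6, Scrt1 and Golga7b held a match within 500 bases on either side of the start of the canonical transcript (GRCm39, GENCODE vM39). The same search found a match in 393 of 15066 promoters of genes in the table (2.61%, 95% Wilson interval 2.37 to 2.88). A match with the fewest mismatches in each of these 5 genes (for Golga7b the middle one of 3 with equal counts) is shown in element direction, 5′ to 3′, so that the arms can be read against the searched letters. Capitals mark the 20 positions of the element, and 5 flanking bases on each side are in lower case.
Ttc9b: tgagcATCAGCACCGGGGACAGCGCgccgc
Scrt1: gcagcTTCAGCACCGCGGCCAGCGCtggct
Sez6: acagaATCAGCACCACGGCCAGCGCctggc
Golga7b: atctcATCAGTACCGCGGACAGCGCccagg
Amer3: ctcgcGTCAGCACCACGGCCAGCTCcaggt

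Substitutions are given with the searched base first, its position counted from 1 at the 5′ end of the element, and the genomic base last. Ttc9b, which encodes a tetratricopeptide repeat protein, held a match with 1 mismatch (T1A) at chr7:27353359-27353388 on the minus strand. It lay in the coding part of exon 1, with its centre 94.5 bases after the start. Scrt1, a zinc finger repressor of neurons, also held a match with 1 mismatch (A14C), at chr15:76406452-76406481 on the plus strand, in the 5′ UTR. A further match of Scrt1 with 3 mismatches (T1G, T2G, A14C) lay beside it, with centres at 341.5 and 314.5 bases after the start.

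Sez6, a seizure-related membrane protein of neurons, held a match with 2 mismatches (T1A, A14C) at chr11:77821724-77821753 on the minus strand in the 5′ UTR. Its next match, with 3 mismatches (T1G, A4G, A7G), lay 454.5 bases after the start in the first intron. Amer3, of the APC membrane recruitment family, held a match with 3 mismatches (T1G, A14C, G19T) in the 5′ UTR at chr1:34618752-34618781, minus strand. It was the weakest best match among the 5 genes. The substitution A14C in the right arm was shared by Scrt1, Sez6 and Amer3.

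Golga7b, related to an accessory subunit of palmitoyltransferases, held 3 matches with 2 mismatches each in its 5′ UTR, and was the only one of the 15066 promoters with at least 3 matches (13 had at least 2). Its 3 sites are shown since they stand side by side in the first exon, in the direction of the gene.
Golga7b, nearest to the start: cccgcGTCAGCACCGTGGACAGCACggacc
Golga7b, middle: atctcATCAGTACCGCGGACAGCGCccagg
Golga7b, farthest: ttcctATCAGCACCGCGGACAGCCCccctg
They lay at chr19:42244397-42244426 (T1G, G19A), chr19:42244476-42244505 (T1A, C6T) and chr19:42244537-42244566 (T1A, G19C), with centres 272.5, 351.5 and 412.5 bases after the start. Each of the 3 differed from the searched element at position 1. In Amer3, Ttc9b, Sez6 and Scrt1 the element ran against the direction of the gene.

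**Figure D1:**
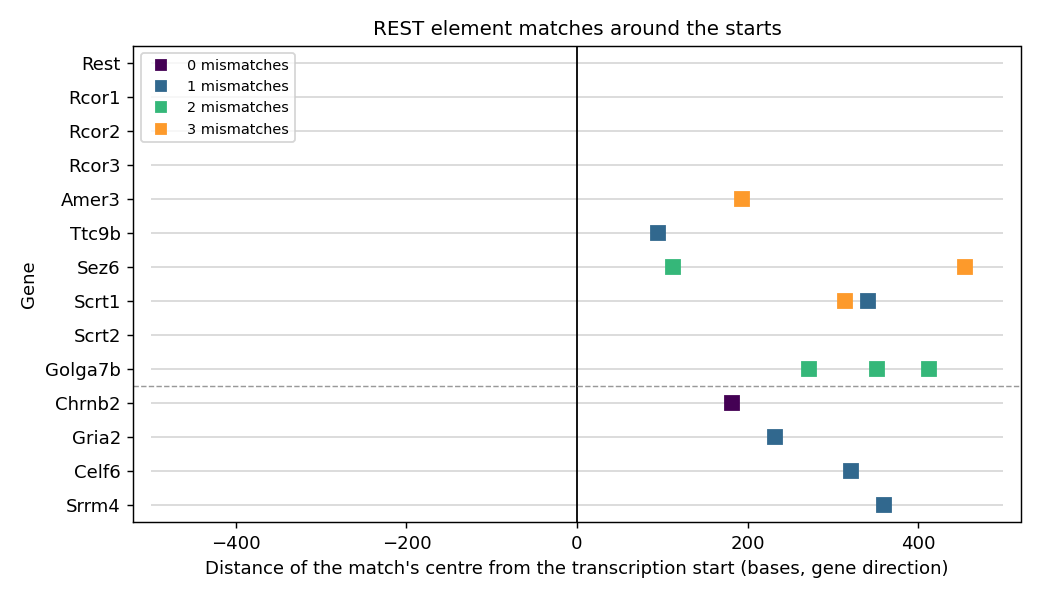
Position of each match to the REST element (x axis, bases from the transcription start in gene direction) in the 10 genes and, below the dashed line, in Chrnb2, Gria2, Celf6 and Srrm4; each square is 1 match, coloured by its mismatches, and grey lines span the 500 bases searched on each side. The 9 matches of Amer3, Ttc9b, Sez6, Scrt1 and Golga7b lie after the start of the canonical transcript, from 94.5 to 454.5 bases. Rest, Rcor1, Rcor2, Rcor3 and Scrt2 have none.

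All 9 matches in these 5 genes lay after the start of the canonical transcript. Among the promoters of all genes, 290 of 407 matches (71.3%) did so, and 27 of 33 matches (81.8%) with at most 2 mismatches. Matches were counted per gene, so a site near the starts of neighbouring genes, such as Atg13 and Harbi1, was counted for each. Distances depend on the start used: with RefSeq starts, Ttc9b and Amer3 had matches in a window ending 50 bases after the start. Matches with at most 2 mismatches were scarce, with 29 promoters of 15066 (0.192%), of which Ttc9b, Scrt1, Sez6 and Golga7b were 4. Since these genes had been selected on the element, their share is no evidence of its enrichment. In the 33 matches with at most 2 mismatches, positions 1 and 19 each differed from the searched letter in 11, and position 14 in 7, among 51 substitutions in all.

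**Figure D2:**
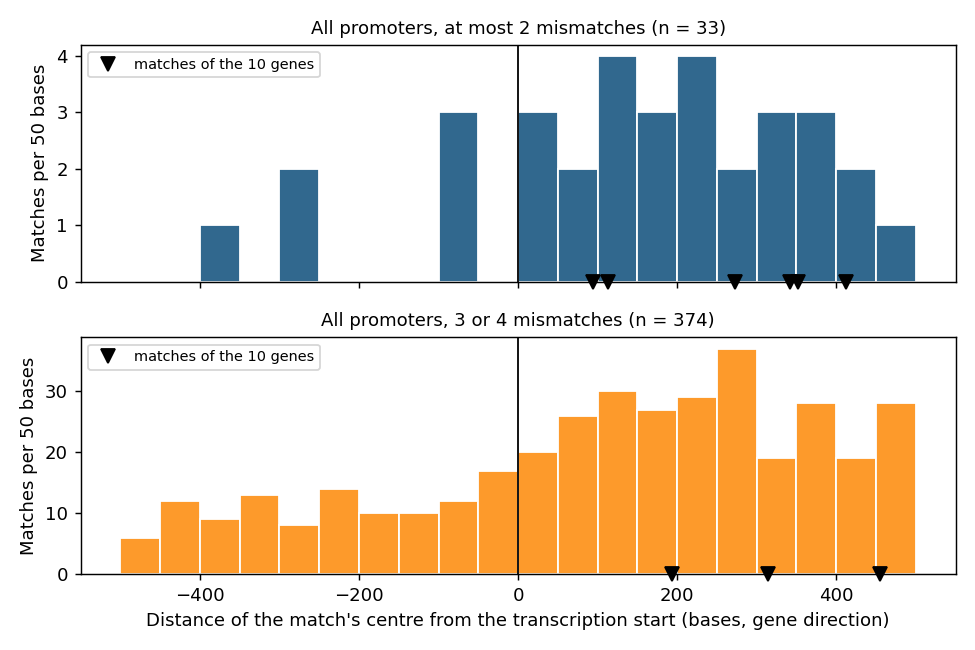
Number of matches per 50 bases (y axis) by distance of the match from the transcription start (x axis, bases in gene direction) over the promoters of all genes, for matches with at most 2 mismatches (upper panel, 33 matches) and with 3 or 4 (lower panel, 374 matches); triangles mark matches of Amer3, Ttc9b, Sez6, Scrt1 and Golga7b. In the upper panel 27 of 33 matches lie after the start, and in the lower panel 263 of 374.

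In Rest and the Rcor genes no such match was found near the start. The closest stretch had 6 mismatches in Rest, Rcor1 and Rcor3, and 7 in Rcor2. In Scrt2 it also had 7, whereas Scrt1 had 1, although the coding sequences of both Scratch genes were identical at 75.7% of aligned bases. The threshold of 4 mismatches thus fell between Amer3, with 3, and Rest, Rcor1 and Rcor3, with 6. Of all promoters, 6926 had a best match of 6 mismatches and 5452 of 7.

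Extending the search to the whole gene with 10 kb on either side, a choice made after seeing the data, added Rest as the sixth gene. Its 2 matches lay 1523.5 and 1667.5 bases past the 3′ end of the gene, with 3 and 4 mismatches. Sez6 held a further match with 2 mismatches in an intron, 34917.5 bases after the start. It also held 1 with 4 mismatches in the 3′ UTR and 1 with 4 mismatches 3528.5 bases past the gene end. Amer3 held 1 with 4 mismatches, 5345.5 bases after its start. Of all genes, 41.7% held a match in such a span, which grows with the length of the gene. In Rcor1, Rcor2, Rcor3 and Scrt2 no match was found there either.

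REST is also known to bind arms set wider apart. With 7 to 9 bases between them in place of 2, matches with at most 4 mismatches appeared in Ttc9b, Rcor2 and Rest. The share of all promoters was 5.60%. Ttc9b was thus the only 1 of the 10 genes with a match at both spacings. The mismatches and places of these wider matches are not given, and binding of REST to them was not tested. The promoters of Rest and the Rcor genes were rich in G and C, from 67.1% in Rest to 76.7% in Rcor3, against a median of 58.2% over all promoters. That of Scrt1 held 70.4% and that of Scrt2 61.3%. Those of Amer3 (61.5%), Ttc9b (60.9%), Sez6 (64.6%) and Golga7b (62.9%) also lay above that median.

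The average level of Rest, on chromosome 5 from 77408131 to 77434284 (GRCm39), was 5.15 log2 CPM, at rank 6084 of the 15095 genes. The median over all genes was 4.57, with the middle 50% between 2.08 and 6.05. Rest RNA was thus present in these NPCs, with an average slightly above the median before transcript length was taken into account. Since reads gather with transcript length, genes were compared with each other only after subtracting log2 of the canonical transcript's length in kb, giving the level per kb. With its transcript of 7685 bases, Rest then lay at 2.20, below the median of 2.77 over 15066 genes.

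Rcor2 was far more abundant than the other CoREST genes. Its average was 9.37 log2 CPM, rank 148 in the table, and its level per kb of 7.85 was at percentile 98.5. Per kb, Rcor2 lay 4.32 log2 units above Rcor1 and 5.15 units above Rcor3, the latter a 35.4-fold difference. With merged exons of all transcripts as the length, Rcor2 lay 6.51 units above Rcor3, and with the mean length of coding transcripts 4.88 units. Rcor1, which encodes CoREST1, had an average of 6.04 log2 CPM and a level per kb of 3.53, and Rcor3 had 4.74 and 2.70. Rcor1 lay 0.82 units above Rcor3 per kb, 0.30 units with the mean length of coding transcripts and 2.19 units with merged exons. The last gap is wide because 31 annotated transcripts of Rcor3 together span 15013 bases against 4096 for the canonical one. Against Rest itself, Rcor2 was 5.65 units higher per kb.

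The coding sequences of Rcor1 and Rcor2 were identical at 66.1% of aligned bases. Those of Rcor1 and Rcor3 were identical at 69.3% and those of Rcor2 and Rcor3 at 65.1%. The aligned bases made up 80.1%, 78.7% and 93.6% of the longer sequence, respectively, so the identities cover unlike parts. The genes lie on chromosomes 12 (Rcor1, from 111005769 to 111082338), 19 (Rcor2, from 7241690 to 7252591) and 1 (Rcor3, from 191782846 to 191822370). Whether reads were shared between them was not tested.

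The neuronal genes fell into a high and a low group. Scrt1 and Scrt2, both zinc finger repressors with a SNAG domain, averaged 7.32 and 7.47 log2 CPM. Their levels per kb of 5.15 and 5.43 were close to each other, 0.28 units apart, with no replicate error to judge this by. Sez6 averaged 2.90 log2 CPM, and per kb it lay 4.34 units below Scrt1. The gap was 4.99 units with merged exons and 4.18 units with the mean length of coding transcripts.

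The remaining neuronal genes were low. Amer3 averaged 2.44 log2 CPM, Golga7b 1.95 and Ttc9b 1.77, so that each lay under the median of all genes. Per kb, Sez6 was at 0.81, Ttc9b at 0.69, Golga7b at 0.42 and Amer3 at -0.05, between percentiles 21.2 and 27.7. Their order among themselves changed with the length used, since Golga7b came last with merged exons. Scrt1 and Ttc9b, each with a match of 1 mismatch near the start, lay at percentiles 86.4 and 26.8 per kb, respectively. In bulk RNA, a low level in every cell and expression in few cells cannot be told apart.

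**Figure D3:**
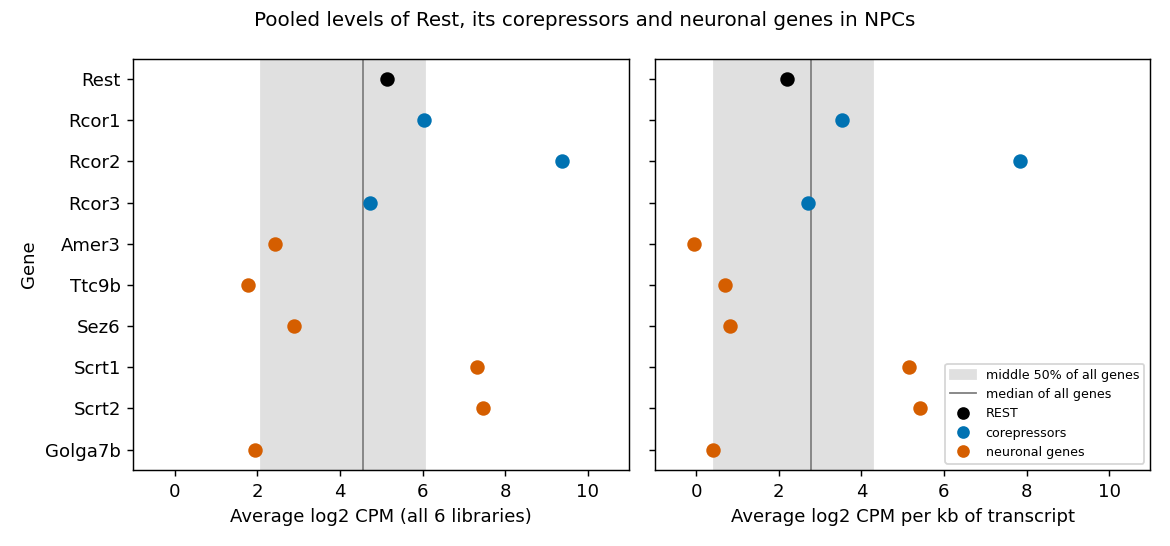
Authors' average level over all 6 libraries for the 10 genes (y axis), as log2 CPM (left, x axis) and as log2 CPM per kb of canonical transcript (right, x axis); each point is 1 gene and has no error, and the grey band spans the middle 50% of all genes with their median as a line. Rcor2 lies at 9.37 log2 CPM, Scrt1 and Scrt2 lie above 7, and Amer3, Ttc9b, Sez6 and Golga7b lie below the median.

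Genes of the same families gave a range to set beside these levels. Among 8 listed factors with a SNAG domain, Scrt2, Scrt1 and Insm1 (5.02) were the highest per kb, whereas Gfi1b (-3.13), Snai3 (-2.43) and Snai2 (-1.75) were the lowest, and Insm2 was not listed. Gfi1b and Snai3 averaged -2.26 and -1.73 log2 CPM, near the lowest level of any gene (-2.54), so their order is not interpreted. Among 13 genes of the Amer, Ttc9, Sez6 and Golga7 families and their palmitoyltransferase partners, Golga7 was the highest with 6.31 per kb. Golga7 thus lay well above Golga7b. Ttc9c followed with 3.83 and Zdhhc5, the palmitoyltransferase that Golga7b binds, with 3.46, while Amer3, Sez6l (-0.03) and Amer2 (0.04) were at the low end.

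Partners that REST and CoREST recruit were abundant. All 19 were listed, 17 of them above the median of all genes per kb, and their median was 5.13. The deacetylase gene Hdac2 (6.91), the LSD1 gene Kdm1a (6.49) and Hmg20b (6.40), a subunit of the LSD1-CoREST complex, were the highest. Ctdspl (2.38), a small phosphatase, and Cdyl (2.47) were among the lowest.

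All 8 regulators of REST itself were listed, with a median of 4.22 per kb. Csnk1a1 (6.91), Usp7 (5.86), a deubiquitinase, and Terf2 (5.16) were the highest, and Prickle1 (1.00) and Srrm4 (3.79) were among the lowest. Srrm4 encodes the neuronal splicing factor that switches Rest to a truncated form, and its own promoter held a match with 1 mismatch (C9T) at chr5:116729550-116729579 on the minus strand. It is shown since it places the element in a gene that acts on Rest.
Srrm4: cacgtTTCAGCACTTCGGACAGCGCcccag
Srrm4 averaged 6.70 log2 CPM in these NPCs. None of the 19 partners of REST and CoREST had a match near its start, beside a share of 2.61% over all promoters.

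Of 50 genes known as REST targets, 47 were listed and Crh, Nppa and Drd3 were not. A match was found in 15 of the 47 (31.9%), against 2.61% of all promoters, and in 11 of them with at most 2 mismatches, against 0.192%. These 11 were Chrnb2, Celf6, Chga, Gria2, Grin1, Syt4, Vgf, Calb1, Celsr3, Syn1 and Syp, and Dner, Mapk8ip1, Rundc3a and Stmn3 had weaker ones. Genes may be known as targets because they carry the element, so these shares are no test of enrichment. Chrnb2, a subunit of the nicotinic acetylcholine receptor, was 1 of 2 genes of the table with the searched element in full within 500 bases of the start. Gria2, a glutamate receptor subunit, and Celf6, an RNA-binding protein, each had 1 mismatch (C3T and C20G, respectively). Their sites are printed as examples with 0 or 1 mismatch in known targets.
Chrnb2: gcggcTTCAGCACCACGGACAGCGCtccgt
Gria2: tcgatTTTAGCACCGCGGACAGCGCtttgg
Celf6: tggctTTCAGCACCGCGGACAGCGGcggcg
They lie at chr3:89671757-89671786, chr3:80710291-80710320 and chr9:59485713-59485742, with centres 181.5, 232.5 and 321.5 bases after the start.

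The known targets covered a wide range of expression. Tubb3 (8.07 per kb), Nefm (6.72) and Stmn2 (6.20) were the highest, and Calb1 (-2.18) and Penk (-0.96) were among the lowest, with a median of 2.27. The median was 3.08 for the targets with a match and 1.87 for those without. Over all genes, the median per kb was 2.68 with a match and 2.77 without. For the 29 genes with at most 2 mismatches it was 0.81, and 20 of them lay below the median of all genes, against 205 of all 393 with a match. Scrt1 was among the 9 that lay above it, whereas Ttc9b, Sez6 and Golga7b were among the 20 below. These are descriptions of average levels over both genotypes.

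**Figure D4:**
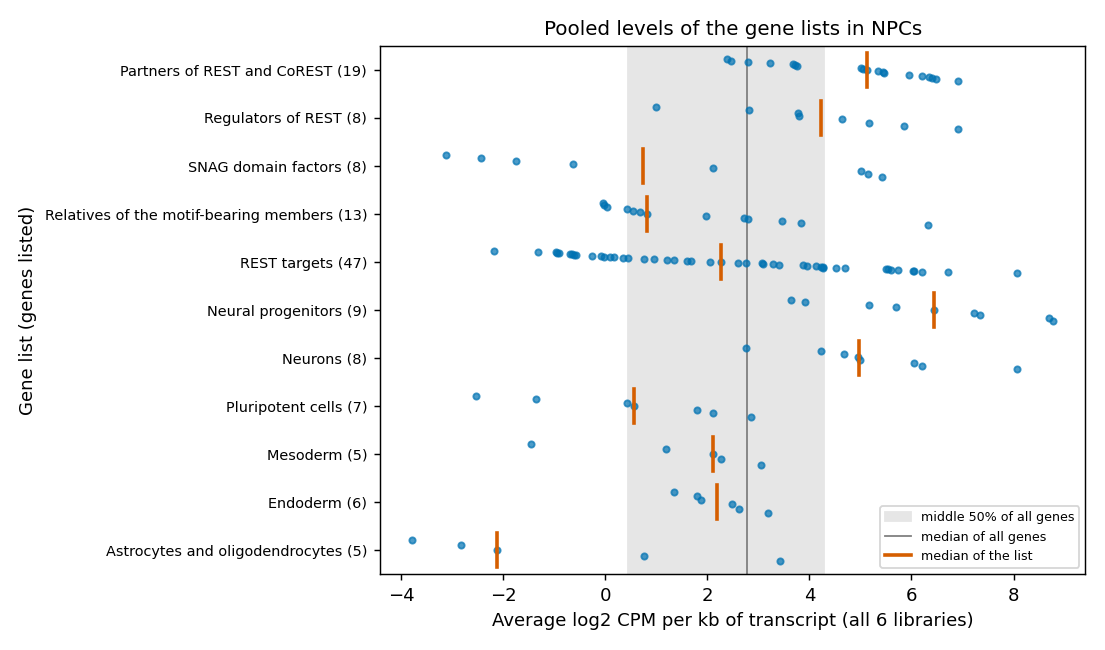
Authors' average log2 CPM per kb of canonical transcript over all 6 libraries (x axis) for each gene list (y axis, listed genes in parentheses); points are genes, vertical bars are list medians, and the grey band spans the middle 50% of all genes. Partners of REST have a median of 5.13, and the REST targets spread from -2.18 to 8.07.

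Markers bore on the cell type. Of 10 progenitor markers, 9 were listed with a median of 6.45 per kb, Crabp1, Vim and Sox3 being the highest, and Sox1 was not listed. All 8 neuronal markers were listed (median 4.97), from 2.76 for Rbfox3 to 8.07 for Tubb3, so that the levels of the neuronal genes above were read in cultures that also held RNA of neurons. Pluripotency markers had a median of 0.56, mesoderm 2.11, endoderm 2.18, and astrocytes and oligodendrocytes -2.13. In each of these lists 1 gene lay above the median of all genes per kb, namely Dppa5a (2.86), Foxc2 (3.05), Sox17 (3.18) and Mbp (3.42), respectively. Mesp1 and Aqp4 were not listed. The part of these other cell types in the levels of Rest, Rcor2 or the Scratch genes was not tested.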

How the data were processed

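NPC libraries (3 wild type, 3 Setd2-KO) were made from polyA RNA with a directional kit. The authors' processing notes name Trim Galore, STAR, edgeR and the builds NCBIM37 and mm9, whereas their methods name GRCm39 and quantification with Salmon, and which of them the counts rest on could not be settled. Genes with low counts were removed by the authors with filterByExpr and libraries were scaled by TMM. The deposited table holds 1 average log2 CPM per gene over all libraries, which was used as the authors' value. Its other columns (shrunken and unshrunken fold changes, p-values and false discovery rates of the authors' comparison) were not used, and 0 per-sample columns were present in it, so that no test was run.

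The members and lists were chosen with earlier results of these data known. All 10 members were named, and from each list the 3 highest and the 3 lowest genes per kb, genes not listed, and REST targets with an element; a few of these genes are not reported here. Of the gene IDs, 15066 had an entry in GENCODE vM39 (GRCm39) once version suffixes were dropped, and 29 had none. Coordinates, sequences and transcript lengths come from this match. The authors' counts may rest on another annotation, so the lengths behind the levels per kb may differ from those of the transcripts counted. The element search, written in Python 3.11.15 with numpy 2.4.6, was tested on simulated data. Coding sequences were aligned with Biopython 1.88. This nucleotide identity stood in for the protein identity first planned.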

Additional observations from a re-analysis of the deposited data

How the results depend on the processing

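Amer3, Ttc9b, Sez6, Scrt1 and Golga7b were the 5 genes with a match under at most 3 or at most 5 mismatches and within 1000 bases of the start, where the share of all promoters changed from 2.61% to 0.538%, 15.6% and 4.29%, respectively. With 7 to 9 free bases between the arms, 3 genes (Ttc9b, Rcor2 and Rest) and 5.60% of promoters had a match. In the shorter window of RefSeq (GRCm38.p6, 250 bases before to 50 after the start), 2 genes (Ttc9b and Amer3) of the 6 found in that table and 0.928% of promoters had one. With the whole gene and 10 kb on either side, added after the data were seen, the counts were 6 genes and 41.7%. The length used for levels per kb moved 4 of 10 genes by over 1.5-fold with merged exons (Rcor3, Ttc9b, Sez6 and Golga7b, up to -1.87 for Rcor3), which placed Rest above Rcor3, and 0 of 10 with the mean length of coding transcripts. Ranking only genes at or above 0 log2 CPM moved 6 of 10 percentiles by over 5 points, and using protein-coding genes only moved 0. No paired analysis was possible because the table holds 1 average per gene. The depth of the libraries is unknown.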
